A study of Mus musculus with 8 samples.

Results

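The 8 genes described here, Tcp1, Cct2, Cct3, Cct4, Cct5, Cct6a, Cct7 and Cct8, encode the subunits of the cytosolic chaperonin TRiC, also named CCT. They were taken by name from the 33027 genes in the deposited matrix, and all 8 were found in it. The rule uses no measured value, but the complex was chosen for description with earlier results of these data known. The question was whether their transcripts were lower in lungs exposed to cigarette smoke (CS) than in lungs kept in room air (RA), and whether they fell together with Hsp90aa1 and Hsp90ab1, the cytosolic HSP90 genes.

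Lung cells of 8 mice, 4 CS and 4 RA, were profiled by single-cell RNA sequencing, and all carried the Sftpc-CreERT2-mTmG alleles on the C57BL/6 background. All 8 mice had received tamoxifen at 8 to 10 weeks of age, which switches the fluorescent reporter in cells that express Sftpc, a surfactant gene of alveolar type II cells, so that the controls carry the same alleles and treatment as the exposed mice. Littermates were then assigned to RA or to smoke for 6 hours per day, 5 days per week, over 10 months. Lungs were taken apart with collagenase and elastase, and each of 4 sequencing lanes held 1 CS and 1 RA mouse.

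TRiC is a barrel of stacked rings in which an unfolded protein is enclosed and folded as ATP is spent. Each ring is built of different but related subunits that sit at fixed positions, and actin and tubulin depend on it to reach their folded state. Prefoldin brings nascent actin and tubulin to the barrel, and phosducin-like proteins act on it as cofactors. HSP90 is a separate machine that completes the folding of kinases and receptors after HSP70 has bound them. Ciliated cells carry motile cilia, whose core is made of tubulin.

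After 1025 cells labelled as multiplets and 7 labelled by cell cycle were set aside, 40074 cells remained, 20330 from CS and 19744 from RA mice. The paper reports a slightly smaller final set, with more cells from RA than from CS mice, and the source of this difference was not tested. Over all 41106 deposited cells, total UMIs per mouse (counts of distinct captured molecules, here after correction for free RNA) ran from 31882952 to 55485617. Of the 40909 distinct barcodes of all deposited cells, 197 occurred in more than 1 mouse. The authors' cell type names were used, and each of the 3 markers chosen for ciliated cells (Foxj1, Tppp3, Ccdc153), aerocytes (Car4, Ednrb, Apln), AT1 and AT2 cells was highest in the type of that name. For gCap cells this held for Gpihbp1 and Plvap, while Ptprb was higher in arterial endothelial cells. The sex labels of the 4 CS libraries go against their transcripts. CS mice C2 and C5, labelled male, held Xist at 7.81 and 8.33 transcripts per 10,000 and Ddx3y at 0.00268 and 0.0165, while CS mice D2 and D5, labelled female, held Ddx3y at 0.923 and 1.08. The RA mice went with their labels, with Xist at 5.56 and 6.70 in F1 and F3 and Ddx3y at 1.01 and 0.956 in M1 and M3. Each group thus held mice with Xist and mice with Ddx3y. Sex was used in no comparison.

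On GRCm38, with GENCODE M21 as the annotation, Tcp1 lies on the plus strand of chromosome 17 from 12915701 to 12925067, Cct2 on the minus strand of chromosome 10 from 117051001 to 117063814, and Cct3 on the plus strand of chromosome 3 from 88297116 to 88321767. Cct4 spans 22990519 to 23003780 of chromosome 11 on the plus strand. Cct5 spans 31590800 to 31601804 of chromosome 15 on the minus strand. Cct6a was placed on the plus strand of chromosome 5 from 129786998 to 129846371, and the annotation types it as a processed transcript rather than as a protein-coding gene. The paper names a later GENCODE release for its alignment. Cct7 covers 85451514 to 85468475 of chromosome 6 on the plus strand, and Cct8 covers 87483326 to 87495873 of chromosome 16 on the minus strand. Protein-coding genes of the opposite strand overlap Tcp1 (Mrpl18, Acat3), Cct6a (Psph), Cct7 (Pradc1) and Cct8 (Usp16). Whether counting used the strand is not given in the sources used here, so whether reads of these partners entered the subunit values could not be checked. Cct2, Cct3, Cct4 and Cct5 had no overlapping gene, but a pseudogene of Cct3 has a row of its own and could take some of its reads.

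Promoter sequence was available in RefSeq for 7 of the 8 genes (9 start sites, GRCm38.p6), and the 250 bases before each start were searched for motifs on both strands. The GC box GGGCGG occurred upstream of all 7 genes, in 8 of the 9 windows, against 32.7% of 32851 windows over all genes. GC content ran from 45.2% (Cct5) to 66.8% (Cct2) over the 9 windows, against a median of 52.4% over all windows. Its part in the GC box count was not tested. The CCAAT box occurred before Cct3, Cct6a, Cct7 and Tcp1, in 4 of the 9 windows, against 33.8% of all windows. A heat shock element of 3 units, GAA and TTC in turn with NN between them, occurred in none of the 9 and in 0.466% of all windows. Part of it, GAANNTTC or TTCNNGAA, occurred once before Cct2 (GAANNTTC, 6.69% of all windows) and once before Cct5 (TTCNNGAA, 7.17%). CACGTG, TGACGTCA and TTATGNAA, found in 6.02%, 1.55% and 3.07% of all windows, were in none of the 9. These are letters in a window and say nothing of whether a factor binds there. The Cct7, Cct6a and Cct2 windows are printed because they hold the most CCAAT boxes (Cct7), belong to the gene whose groups overlapped in both capillary types (Cct6a) or hold the most GC boxes (Cct2). Hspe1, the mitochondrial co-chaperonin gene described below, is shown beside them as a window with overlapping heat shock elements. Capitals mark GC boxes, CCAAT boxes and heat shock elements on either strand, and each sequence reads 5′ to 3′ on the gene's strand. The windows are chr6:85451255-85451504 (+) for Cct7, chr5:129787106-129787355 (+) for Cct6a, chr10:117063853-117064102 (−) for Cct2 and chr1:55087898-55088147 (+) for Hspe1.
Cct7: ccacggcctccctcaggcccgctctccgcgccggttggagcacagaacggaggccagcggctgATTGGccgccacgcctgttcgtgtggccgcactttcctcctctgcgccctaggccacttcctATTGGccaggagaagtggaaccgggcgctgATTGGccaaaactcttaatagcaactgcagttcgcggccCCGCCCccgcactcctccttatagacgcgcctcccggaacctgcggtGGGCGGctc
Cct6a: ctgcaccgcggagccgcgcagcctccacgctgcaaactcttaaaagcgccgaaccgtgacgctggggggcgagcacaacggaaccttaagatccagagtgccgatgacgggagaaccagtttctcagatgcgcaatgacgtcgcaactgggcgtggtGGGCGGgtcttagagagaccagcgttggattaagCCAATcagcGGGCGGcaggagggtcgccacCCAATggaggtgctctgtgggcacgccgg
Cct2: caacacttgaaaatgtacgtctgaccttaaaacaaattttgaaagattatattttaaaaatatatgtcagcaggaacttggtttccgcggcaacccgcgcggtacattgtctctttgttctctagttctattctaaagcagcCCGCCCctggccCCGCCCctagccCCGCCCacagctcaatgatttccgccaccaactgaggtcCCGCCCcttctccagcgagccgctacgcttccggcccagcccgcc
Hspe1: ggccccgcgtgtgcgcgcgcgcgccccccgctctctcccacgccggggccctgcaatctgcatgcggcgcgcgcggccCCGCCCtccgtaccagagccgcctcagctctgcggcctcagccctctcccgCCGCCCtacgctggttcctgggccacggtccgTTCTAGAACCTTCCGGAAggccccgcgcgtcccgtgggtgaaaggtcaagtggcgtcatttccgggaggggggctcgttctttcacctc

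In each of the 22 cell types with enough cells, the summed level of the 8 subunits had a lower mean in CS than in RA mice. The groups overlapped in some types, such as alveolar macrophages, goblet cells and non-classical monocytes, and in the last only 4 of 8 subunits were lower. The difference passed the test for all 8 subunits in ciliated cells, for 5 in gCap cells and for 1 in aerocytes. With the sequencing lane, which pairs the mice, as a term, these counts were 4, 0 and 1. Values were the mean over the cells of a type in a mouse of transcripts per 10,000 transcripts of the cell, and mice were the replicates. Differences were tested with limma on log2 of that value plus 1, a scale that understates the change of low genes, and p-values were adjusted over all genes tested in the type. Of 176 subunit and type pairs, 168 passed the filter on detection, 152 of them had a negative CS minus RA difference and 16 a positive one. By limma, 14 pairs were called lower at an adjusted p below 0.05, against 0.537% of all gene and type pairs tested. No pair was called higher, and no positive difference had an unadjusted p below 0.05. CS and RA mice did not overlap, with CS lower, in 71 pairs, a separation seen in 4.67% of all pairs, and a negative difference of any size was seen in 45.9% of all pairs. The pairs share the same 8 mice and are not independent.

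**Figure D1:**
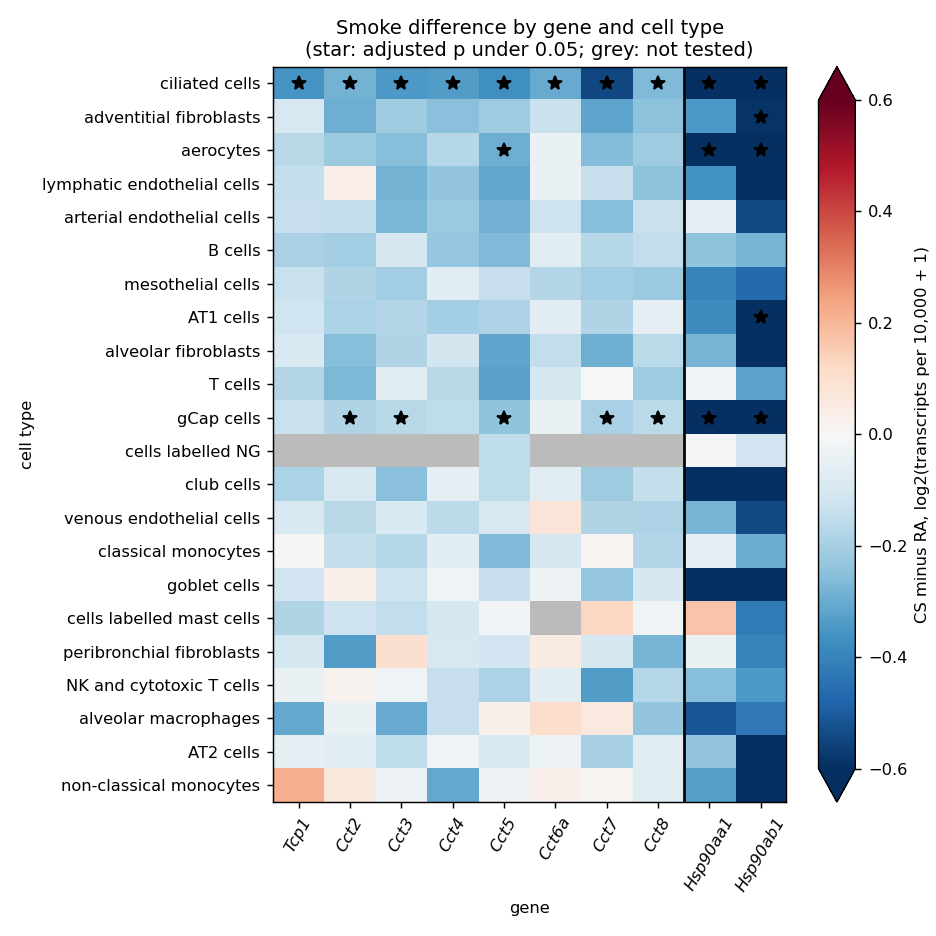
Difference between CS and RA mice for the 8 TRiC subunits and, right of the line, the HSP90 genes in 22 cell types, as CS minus RA on the log2(transcripts per 10,000 + 1) scale (blue, lower in CS). Stars mark adjusted p below 0.05 by limma and grey marks genes that did not pass the filter. Ciliated cells carry a star for all 8 subunits, and most other cells of the map are pale blue.

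Ciliated cells had the clearest difference. All 8 subunits were called lower in CS mice (limma, adjusted p between 0.0039 and 0.0213), against 1.91% of the 11147 genes tested there, and in each of them every CS mouse was below every RA mouse, against 6.67% of genes. The summed level of the 8 was 11.3 ± 0.547 transcripts per 10,000 in CS against 16.9 ± 1.80 in RA mice (SD over 4 mice a group), so that CS stood at 66.9% of RA. The median log2 difference over the 8 was -0.34, and it was 0.01 over all genes tested.

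Cct7, the eta subunit, had the highest level of the 8 in ciliated cells and the largest difference. It was at 2.31, 2.702, 2.48 and 2.14 transcripts per 10,000 in CS mice C2, C5, D2 and D5, and at 5.08, 3.22, 3.83 and 3.91 in RA mice F1, F3, M1 and M3. RA mouse F1 stood highest, and the lowest RA mouse was still above the highest CS mouse. The mean was 40.0% lower in CS, a log2 difference of -0.55 (SE 0.103, adjusted p = 0.0191 by limma).

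Tcp1, the alpha subunit and the first of the family to be described, was at 0.885, 0.994, 1.06 and 1.004 transcripts per 10,000 in these CS mice and at 1.65, 1.45, 1.47 and 1.57 in the RA mice. The groups did not overlap and the spread within each was small. Its mean was 35.7% lower in CS (log2 difference -0.35, SE 0.0444, adjusted p = 0.0039 by limma), the smallest adjusted p of the 8.

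Cct5, the epsilon subunit, which like the delta subunit can form rings of its own, was at 1.37, 1.496, 1.45 and 1.32 in CS and at 2.50, 1.91, 1.98 and 2.05 in RA mice. Cct4, the delta subunit, was at 1.36, 1.46, 1.51 and 1.36 in CS and at 2.21, 2.01, 1.99 and 2.01 in RA mice. Both genes were highest in RA mouse F1 and kept a gap between the groups without it. The CS mean was 33.3% lower for Cct5 (log2 difference -0.37, adjusted p = 0.0134 by limma) and 30.8% lower for Cct4 (-0.33, adjusted p = 0.00591).

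Cct3, the gamma subunit, was at 1.26, 1.47, 1.38 and 1.40 in CS and at 2.27, 1.73, 2.05 and 2.04 in RA mice, 31.8% lower in CS. Cct2, the beta subunit, was at 1.59, 1.61, 1.53 and 1.45 in CS and at 2.31, 2.06, 2.07 and 1.94 in RA mice, 26.3% lower. Neither gene overlapped between the groups, and the log2 differences were -0.34 for Cct3 (adjusted p = 0.0149 by limma) and -0.28 for Cct2 (adjusted p = 0.0166).

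Cct6a, the zeta subunit of most tissues, was at 1.03, 1.05, 1.08 and 1.02 in CS and at 1.64, 1.54, 1.53 and 1.38 in RA mice, 31.3% lower. Cct8, the theta subunit, was at 1.09, 1.12, 1.14 and 1.09 in CS and at 1.79, 1.35, 1.56 and 1.48 in RA mice, 28.1% lower. The CS mice lay close together for both genes, and all 4 RA mice lay above them. The log2 differences were -0.30 (adjusted p = 0.00615 by limma) and -0.27 (adjusted p = 0.0213).

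**Figure D2:**
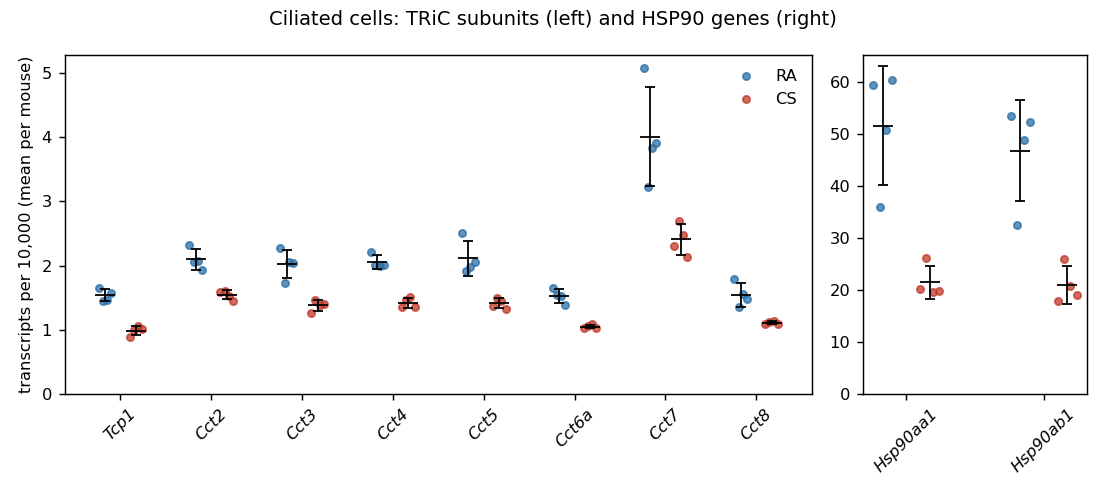
Transcripts per 10,000 in ciliated cells for the 8 TRiC subunits (left) and the HSP90 genes (right). Each point is 1 mouse, and bars give the mean and SD of 4 mice. For all 10 genes every CS point lies below every RA point.

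In ciliated cells the count of called subunits was 4 of 8 with the sequencing lane as a term, 3 without CS mouse D5 and 3 with no filter on genes. With the lane, Cct2 and Cct3 were among those not called (adjusted p = 0.0511 and 0.0539 by limma). Cct7, with the largest difference, passed in 13 of 17 alternative fits. In each of the 4 lanes the CS mouse was below the RA mouse for all 8 subunits, which the separation of the groups already fixes. Median UMIs per ciliated cell ran from 14558 to 20340 in CS and from 13475 to 19759 in RA mice, and the mitochondrial share from 2.68% to 3.17% and from 2.58% to 2.78%. Club cell markers were also found in ciliated cells. Their summed level (Scgb1a1, Cyp2f2, Scgb3a2) ran from 42.4 to 73.4 in CS and from 31.1 to 58.9 in RA mice, and 1 of the 3, Cyp2f2, was called higher in CS (28.9 against 21.1 transcripts per 10,000). These are not markers of club cells alone, since goblet cells held more Scgb3a2 (246.2 against 89.6 in club cells) and about as much Cyp2f2 (58.7 against 59.1). The 7 genes of the response to tissue digestion summed to 37.9 to 99.1 in CS and 67.2 to 100.9 in RA mice, and 1 of them, Fos, was called lower. None of these 10 genes was at 0 in all mice. Their part in the subunit differences, and in the ciliated cell values given below for other genes, was not tested.

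In gCap cells, the general capillary endothelium, 5 of 8 subunits were called lower in CS (limma), against 4.25% of the 6712 genes tested. Cct5, Cct7, Cct3, Cct8 and Cct2 passed, with CS means between 23.2% and 32.3% lower. For 7 of 8 the groups did not overlap, which was seen in 10.9% of genes. The summed level was 5.37 ± 0.299 in CS against 6.93 ± 0.107 in RA mice (SD over 4 mice a group), 77.4% of RA.

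Cct5 was at 0.579, 0.610, 0.675 and 0.570 transcripts per 10,000 in gCap cells of CS mice C2, C5, D2 and D5 and at 0.936, 0.882, 0.883 and 0.892 in RA mice F1, F3, M1 and M3. The groups were well apart, and the log2 difference was -0.24 (SE 0.0371, adjusted p = 0.0156 by limma). Cct7 was at 0.813, 0.865, 0.835 and 0.758 in CS and at 1.15, 1.04, 1.09 and 1.05 in RA mice (-0.19, adjusted p = 0.0287). Cct3 was at 0.643, 0.684, 0.691 and 0.603 in CS and at 0.878, 0.850, 0.868 and 0.822 in RA mice (-0.16, adjusted p = 0.0296). In both genes the 4 RA mice lay within a narrow band above the CS mice.

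Cct8 was at 0.584, 0.697, 0.656 and 0.626 in CS and at 0.820, 0.867, 0.804 and 0.845 in RA mice (log2 difference -0.16, adjusted p = 0.0320 by limma). Cct2 was at 0.685, 0.746, 0.808 and 0.746 in CS and at 1.14, 0.970, 0.921 and 0.900 in RA mice (-0.18, adjusted p = 0.0448). RA mouse F1 stood highest for Cct2, and the groups stayed apart without it.

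The other 3 subunits were not called in gCap cells. Cct4 was at 0.604, 0.688, 0.694 and 0.616 in CS and at 0.709, 0.839, 0.866 and 0.940 in RA mice (adjusted p = 0.0574 by limma). Tcp1 was at 0.464, 0.597, 0.631 and 0.629 in CS and at 0.788, 0.747, 0.672 and 0.715 in RA mice (adjusted p = 0.0747). Both were apart between the groups, whereas Cct6a was at 0.640, 0.632, 0.698 and 0.697 in CS and at 0.643, 0.779, 0.789 and 0.654 in RA mice, overlapped, and had a log2 difference of -0.04 (SE 0.0421, adjusted p = 0.493).

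The gCap calls changed with the fit. The median log2 difference of the 8 was -0.16 as fitted and with the lane as a term, lay between -0.18 and -0.15 when each mouse was left out, and was negative for all 8 subunits each time. With pseudocount 0.1 in place of 1 the same 5 calls held and the median was -0.34. The median of the 8 likewise became -0.51 in ciliated cells and -0.40 in aerocytes. The count of called subunits fell from 5 to 0 with the lane as a term (adjusted p between 0.0606 and 0.0874 for the 5), to 0 without CS mouse C2 or without CS mouse D5, to 1 without CS mouse D2 or without RA mouse F3, and to 0 with no filter on genes. The share of all genes called under each of these fits, here and in the other types, is not given. Whether calls were lost for genes of all kinds alike can therefore not be read from these counts. The digestion genes moved alongside the subunits. Their sum ran from 34.9 to 61.8 in CS and from 72.1 to 96.5 in RA mice, and 3 of 7 (Atf3, Junb, Jun) were called lower in CS. Their part in the subunit differences, and in the gCap values given below for the HSP90, HSP70, actin and tubulin genes, was not tested. Of the 3 gCap markers, Plvap was called lower in CS, and their sum ran from 45.1 to 51.5 in CS and from 49.1 to 53.3 in RA mice.

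In aerocytes, the capillary cells that line the gas exchange surface, 1 of 8 subunits was called lower (limma), against 0.996% of the 6925 genes tested, and 7 of 8 did not overlap between the groups, against 7.06% of genes. The called gene was Cct5, at 0.629, 0.673, 0.766 and 0.709 in CS and 1.16, 1.12, 0.966 and 1.06 in RA mice. All RA mice were above all CS mice, and its mean was 35.5% lower in CS (log2 difference -0.29, SE 0.0494, adjusted p = 0.0224 by limma). It was not called without CS mouse C2, C5 or D5 or without RA mouse F3 or M3. Cct8 (adjusted p = 0.0508), Cct7 (0.0573) and Cct3 (0.0588) lay just outside the threshold in limma, with CS means 26.4%, 29.7% and 30.0% lower. Cct6a was again the gene that overlapped, at 0.749 ± 0.0469 in CS against 0.796 ± 0.0411 in RA mice (SD over 4 mice a group).

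**Figure D3:**
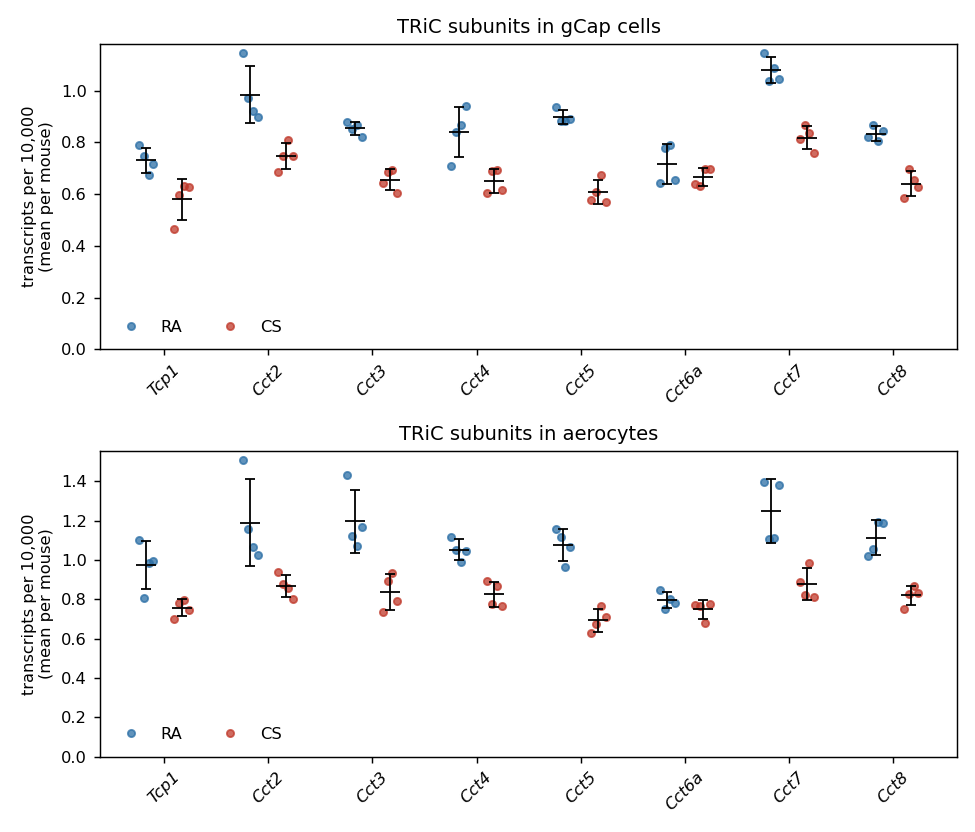
Transcripts per 10,000 of the 8 subunits in gCap cells (upper panel) and aerocytes (lower panel). Each point is 1 mouse, and bars give the mean and SD of 4 mice. In both panels Cct6a is the only gene whose groups overlap.

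Cct6a had the smallest median difference of the 8. Its CS minus RA difference was negative in 16 of 20 types tested, with a median over types of -0.06 on the log2 scale. Like Tcp1 and Cct4, it was called in ciliated cells alone. For the other 7 subunits that median lay between -0.13 (Tcp1) and -0.19 (Cct7). The difference between Cct6a and the other subunits was not tested. Any part of its annotation as a processed transcript, or of Psph on the opposite strand, in its values was not tested either.

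In the 19 other types no subunit was called by limma as fitted. Some calls fell in these types with genes in at least 25% of cells, summed UMIs, median centring, quantile normalization or depth as a term. The same held without RA mouse M1. Few genes of any kind were called there (0.245% of all gene and type pairs called lower), and in 10 of these types no gene was called at all. Over the 19 types 128 of 144 pairs were negative, 55 were lower at an unadjusted p below 0.05, against 5.42% of all gene and type pairs, and 0 were higher at that level. Cct7 (limma, adjusted p = 0.0522) and Cct4 (0.0539) in adventitial fibroblasts came nearest to the threshold, with 0.759 ± 0.143 against 1.19 ± 0.171 for Cct7 and 0.896 ± 0.0190 against 1.26 ± 0.124 for Cct4 (CS against RA, SD over 4 mice a group). In adventitial fibroblasts the 3 ciliated cell markers summed to 0.472 to 0.527 in CS and 0.9999 to 1.35 in RA mice, and the 1 of them that was tested, Tppp3, was called lower in CS. The 7 digestion genes summed to 87.7 to 111.8 in CS and 95.0 to 124.7 in RA mice, and 1 of them, Atf3, was called lower. None of these 10 genes was at 0 in all mice, and their part in the values of this type, here and for the HSP90 and tubulin genes, was not tested.

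The number of subunits whose CS and RA mice did not overlap varied among these types. Over the 19 types it was 49 of 144 pairs, against 4.12% of all gene and type pairs there. It was 6 of 8 in club cells (2.04% of genes there), in alveolar fibroblasts (7.58%) and in mesothelial cells (7.03%, 3 CS and 4 RA mice), and 5 of 8 in T cells (7.17%). It was 4 in adventitial fibroblasts (6.18%), 3 in AT1 cells (5.17%), 2 in AT2 cells (2.13%) and 1 in alveolar macrophages (2.58%). In the remaining types it lay between 0, as in NK and cytotoxic T cells (5.36%), and 3 in lymphatic endothelial cells (2.19%). In club cells Cct3 was 34.0% lower in CS (0.581 ± 0.0529 against 0.880 ± 0.0915, SD over 4 mice a group), with an adjusted p of 0.102 by limma. Non-classical monocytes held the least even picture, with 4 of 8 negative and Tcp1 at a log2 difference of 0.22 (adjusted p = 0.812 by limma).

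AT2 cells, which make surfactant and regenerate the alveolar epithelium, had no gene called among 9138 tested (0%), so that no subunit could stand out by that rule. Cct7 was at 0.894, 0.816, 0.798 and 0.964 in CS mice C2, C5, D2 and D5 and at 1.16, 1.04, 1.15 and 1.22 in RA mice F1, F3, M1 and M3, and Cct3 at 0.586, 0.536, 0.667 and 0.625 in CS and 0.774, 0.767, 0.810 and 0.770 in RA mice. These were the only subunits of AT2 cells whose groups did not overlap, with unadjusted limma p of 0.00327 and 0.00542 and adjusted p of 0.504 and 0.551. The means of the other 6 were between 3.97% and 11.8% lower in CS. Tcp1 was at 1.001, 0.964, 1.05 and 0.875 in CS and 1.01, 0.941, 1.12 and 1.13 in RA mice. Cct5 was at 1.03, 0.879, 0.864 and 0.920 in CS and 1.03, 0.965, 1.04 and 1.15 in RA mice. Both overlapped. Cct2 was at 0.707, 0.650, 0.728 and 0.719 in CS and 0.771, 0.770, 0.718 and 0.857 in RA mice. Cct4 was at 0.825, 0.657, 0.809 and 0.634 in CS and 0.731, 0.760, 0.702 and 0.853 in RA mice. For Cct4 the CS mean lay within the range of the RA mice. Cct8 was at 0.505, 0.581, 0.576 and 0.469 in CS and 0.631, 0.549, 0.694 and 0.542 in RA mice, and Cct6a at 0.522, 0.574, 0.568 and 0.498 in CS and 0.506, 0.516, 0.693 and 0.613 in RA mice.

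Alveolar macrophages, with 31 to 112 cells per mouse, varied more from mouse to mouse. Cct3 was at 0.722, 0.651, 0.540 and 0.669 in CS and 0.993, 1.02, 1.43 and 0.732 in RA mice, the only subunit without overlap (adjusted p = 0.418 by limma). Tcp1 was at 0.797, 0.789, 0.404 and 1.04 in CS and 1.13, 0.810, 1.35 and 1.40 in RA mice. Cct8 was at 1.55, 1.44, 1.03 and 1.43 in CS and 1.69, 1.47, 2.41 and 1.61 in RA mice. Tcp1 and Cct8 were lower in CS on average by 35.3% and 24.1% but overlapped. Cct2 was at 1.41, 1.02, 1.46 and 1.46 in CS and 1.24, 1.06, 2.11 and 1.28 in RA mice. Cct4 was at 1.71, 1.35, 1.53 and 1.30 in CS and 1.496, 1.56, 1.98 and 1.87 in RA mice. The CS and RA mice were interleaved for these and for the remaining 3 genes. Cct5 was at 2.36, 1.52, 1.04 and 1.76 in CS and 1.71, 1.15, 1.48 and 2.04 in RA mice. Cct6a was at 1.87, 1.88, 1.58 and 1.85 in CS and 1.82, 1.03, 1.93 and 1.69 in RA mice, and Cct7 at 0.990, 1.16, 1.69 and 0.686 in CS and 1.15, 1.06, 0.987 and 0.885 in RA mice. Their CS means were above the RA means.

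Both HSP90 genes were called lower in the same 3 types in which subunits were called. In ciliated cells Hsp90aa1, the stress-inducible form, was at 20.1, 26.2, 19.6 and 19.8 transcripts per 10,000 in CS and at 59.4, 35.8, 50.7 and 60.4 in RA mice, 58.5% lower (log2 difference -1.21, SE 0.160, adjusted p = 0.00507 by limma). Hsp90ab1, the constitutive form, was at 17.8, 26.0, 20.8 and 19.0 in CS and at 53.5, 32.4, 48.8 and 52.3 in RA mice, 55.4% lower (-1.11, SE 0.163, adjusted p = 0.00768). Every CS mouse was below every RA mouse for both, with CS mouse C5 the highest of its group and RA mouse F3 the lowest of its own.

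In gCap cells Hsp90ab1 was 56.4% lower in CS (7.59 ± 1.65 against 17.4 ± 1.82, SD over 4 mice a group) and Hsp90aa1 51.7% lower (2.95 ± 0.945 against 6.10 ± 1.80), with adjusted p of 0.0110 and 0.0332 by limma. Hsp90aa1 overlapped there, since CS mouse C5 at 4.36 was above RA mouse F3 at 4.26. In aerocytes Hsp90ab1 was 64.6% and Hsp90aa1 54.8% lower (adjusted p = 0.00676 and 0.0366 by limma). Hsp90ab1 alone was called in AT1 cells (9.75 ± 1.03 against 19.0 ± 3.03, SD over 4 mice a group, adjusted p = 0.00241 by limma, 1.01% of genes called lower) and in adventitial fibroblasts (11.3 ± 1.61 against 17.4 ± 2.14, adjusted p = 0.0429, 1.18% of genes called lower), where no subunit was. Its log2 difference was negative in 22 of 22 types, and that of Hsp90aa1 in 21. With the lane as a term, 4 of these 8 HSP90 calls were lost by limma, Hsp90ab1 and Hsp90aa1 in gCap cells (adjusted p = 0.0606 and 0.0615), Hsp90aa1 in aerocytes (0.0584) and Hsp90ab1 in adventitial fibroblasts (0.132). Of 17 alternatives, Hsp90aa1 in aerocytes passed in 8 and Hsp90ab1 in adventitial fibroblasts in 5.

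Set beside each other, the subunits stood closer to the RA level than the HSP90 genes did. The CS mean of the summed subunits was between 66.9% (ciliated cells) and 95.2% (non-classical monocytes) of the RA mean over the 22 types. For Hsp90aa1 and Hsp90ab1 summed, it was between 36.9% (aerocytes) and 93.1% (cells labelled NG), and it was the lower of both shares in 18 of 22 types. It was the higher in B cells, T cells, cells labelled mast cells and cells labelled NG.

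**Figure D4:**
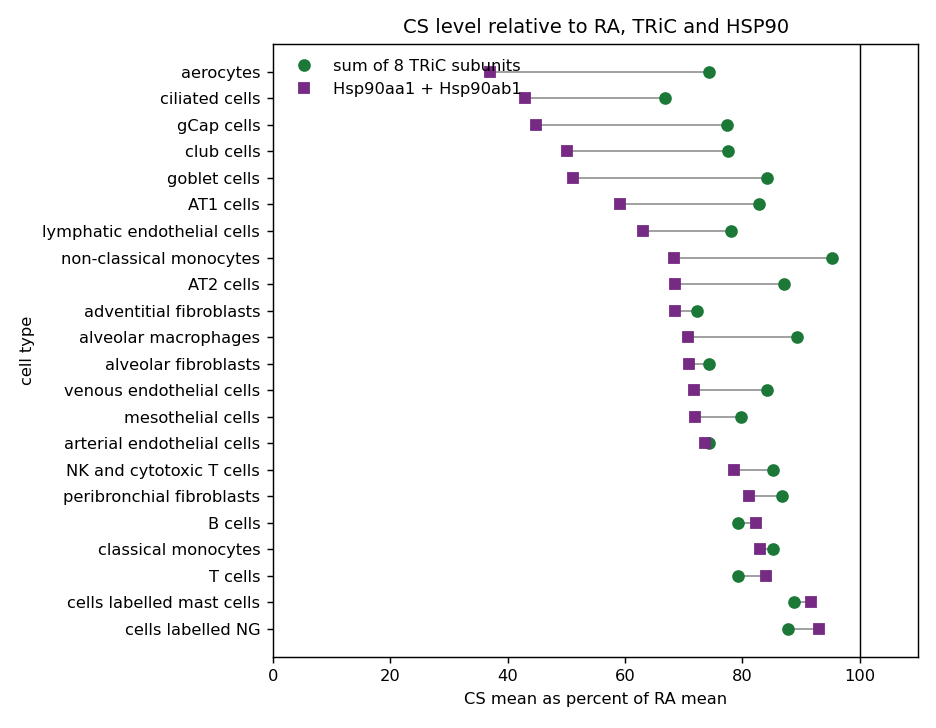
Mean level in CS mice as a percent of the mean in RA mice, for the summed TRiC subunits (circles) and the summed HSP90 genes (squares), in 22 cell types ordered by the HSP90 value. All circles lie below 100%, and the square lies left of the circle in 18 types.

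The difference between the changes was tested within each mouse as the log2 ratio of a subunit to Hsp90ab1 (0.1 added to both), in 17 types with all 8 mice. The ratio was higher in CS in 116 of 129 pairs, by a median of 0.40. For all other tested genes in these types it was higher in CS in 96.5% of pairs, since Hsp90ab1 itself was lower. A higher ratio is thus not particular to the subunits, which with 0.1 added reached it in a smaller share of pairs. By the exact two-sided permutation test over mice, 51 pairs had a p of 0.0286, the smallest that 4 against 4 mice allow. Of the pairs of other genes, 57% reached it with CS higher, again the larger share with 0.1 added. With 1 added in place of 0.1, 71 of the 129 subunit pairs had the smallest p, and 2 had a lower ratio in CS. The shares of other genes were not computed with 1 added, so the 2 kinds of gene cannot be compared at that setting. After adjustment over the 129 pairs no pair passed, with a smallest adjusted p of 0.0723. All 8 subunits had the smallest p in AT1, AT2, gCap and goblet cells and in aerocytes. In gCap cells the CS minus RA difference of the ratio lay between 0.71 (Cct5) and 1.12 (Cct6a), and in ciliated cells, where 3 of 8 reached the smallest p, between 0.45 (Cct7) and 0.73 (Cct2).

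Whether the smoke difference of a subunit varied between cell types was tested on the per-mouse difference between types with limma. No subunit was called for gCap against AT2 cells (1.18% of 6024 genes called), gCap cells against alveolar macrophages (0.629% of 5566) or gCap cells against alveolar fibroblasts (0.263% of 6095), and 1, 0 and 0 of the 8 had an unadjusted p below 0.05. For Cct5 in gCap against AT2 cells, the one with that p, the difference was -0.15 on the log2 scale, with an approximate interval from its SE of -0.28 to -0.02. For Cct6a that interval was -0.12 to 0.11. The comparisons with ciliated cells were added after their values were seen. Tcp1 (-0.22, adjusted p = 0.0367 by limma) and Cct6a (-0.26, adjusted p = 0.0373) fell further in ciliated than in gCap cells (2.75% of 6139 genes called in either direction), and Cct4 (-0.28, adjusted p = 0.0451) further than in club cells (0.785% of 10699). None of these passed with 0.1 in place of 1 added before the log (adjusted p = 0.107, 0.0690 and 0.187), with the lane as a term, or without any of the 4 CS mice, and none passed without RA mouse F3, M1 or M3.

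The genes that work with TRiC were read from lists. Over the lists described from here on, the HSP70 list included, 63 of 906 gene and type pairs were called lower by limma. With the lane as a term this became 35, and without CS mouse D5 it became 17. None of the 6 prefoldin genes, which deliver actin and tubulin, was called in ciliated cells, gCap cells or aerocytes, and 1 of 125 prefoldin and type pairs was called lower over all types, against 0.537% of all gene and type pairs. In ciliated cells 3 of the 6 were lower in CS, and the median log2 difference was -0.02. Pfdn2, a subunit shared with other prefoldin-like complexes, was at 1.43 ± 0.130 in CS against 1.53 ± 0.217 in RA mice there (SD over 4 mice a group), and 1 of the 6, Pfdn6, had an unadjusted limma p below 0.05 (0.0457). Of the phosducin-like genes, 3 of 4 were tested in ciliated cells and 0 called, in these or any other type (0 of 57 pairs), with Pdcl3 at 0.733 ± 0.0702 in CS and 0.869 ± 0.172 in RA mice (limma, unadjusted p = 0.108). Of 11 other substrates, none was called in any type (0 of 119 pairs tested). At 0.537% of all pairs, lists of this size would hold few calls or none, and nothing is read from these counts.

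Among the actin and tubulin genes, the main clients of TRiC, calls went in different directions by cell type. In ciliated cells 2 of 9 tested were called lower (1.91% of all genes), Tubb4b, a beta-tubulin of cilia, at 13.3 ± 1.01 in CS and 19.4 ± 2.10 in RA mice (log2 difference -0.51, adjusted p = 0.0177 by limma), and Tubb5 at 0.172 ± 0.0117 against 0.245 ± 0.0284 (adjusted p = 0.0409). In gCap cells 4 of 6 were called lower (4.25% of all genes), Actb (-0.78), Tubb4b (-0.46), Tubb2a (-0.43) and Tubb5 (-0.39), and in aerocytes 1 of 7 (0.996%), Tubb2a (-0.56). In arterial endothelial cells 4 of 10 were called lower (0.324% of all genes), in adventitial fibroblasts 3 of 13 (1.18%), in alveolar fibroblasts 1 of 11 (0.751%) and in mesothelial cells 1 of 11 (0.234%), all types in which no TRiC subunit was called. In AT1 cells 3 of 10 were called higher in CS (1.37% of genes called higher), Tuba1b (1.31 ± 0.198 against 0.653 ± 0.132), Tubb5 (1.34 ± 0.310 against 0.701 ± 0.0977) and Tuba8 (0.622 ± 0.0785 against 0.321 ± 0.0379, SD over 4 mice a group), and 0 lower. The reads of near-identical tubulin genes can be split by counting, so single tubulin values are uncertain.

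Of the other chaperonin genes, Hspd1 and Hspe1, which form the mitochondrial chaperonin and share a promoter, were called lower in ciliated cells (1.91% of all genes). Hspd1 was at 1.84 ± 0.582 in CS and 4.46 ± 0.897 in RA mice (-0.95, adjusted p = 0.00973 by limma) and Hspe1 at 2.06 ± 0.817 and 5.88 ± 1.99 (-1.15, adjusted p = 0.0264, SD over 4 mice a group). Mkks, a chaperonin-like gene of the cilium base, was at 0.0791 and 0.0798. Over all types 4 of 48 pairs of this list were called lower, against 0.537% of all gene and type pairs. Outside ciliated cells these were 1 of 3 tested in club cells and 1 of 2 in aerocytes.

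HSP70 and its cochaperones, which hand clients to HSP90, were called lower in 7 of 17 genes in ciliated cells (1.91% of all genes there), 9 of 17 in gCap cells (4.25%), 8 of 17 in aerocytes (0.996%) and 7 of 17 in AT1 cells (1.01%), and none was called higher in any type. Hspa8, the constitutive HSP70, had the largest difference in ciliated cells, at 6.74 ± 1.26 in CS and 21.4 ± 6.39 in RA mice (-1.499, adjusted p = 0.00507 by limma), and Stip1 (-0.82), Dnaja1 (-0.78) and Fkbp4 (-0.67) were next among those called. Hspa8 was also called in alveolar macrophages (6.59 ± 0.671 against 13.2 ± 3.45, SD over 4 mice a group, adjusted p = 0.0310 by limma, 0.301% of genes called lower). The 7 digestion genes summed there to 31.3 to 43.4 in CS and 43.1 to 62.4 in RA mice, and 1 of them, Egr1, was called lower, and their part in the Hspa8 difference was not tested. In AT1 cells, where 7 cochaperone genes and Hsp90ab1 were called, the median log2 difference of the TRiC subunits was -0.18 and 0 of 8 passed (smallest adjusted p 0.118 by limma), with 5 of 8 below an unadjusted p of 0.05, against 8.25% of all genes lower at that level. The mitochondrial share of AT1 cells did not overlap between the groups, at 2.13% to 3.16% in CS and 1.58% to 1.92% in RA mice. Its part in the AT1 values given for the TRiC subunits and their ratios, and for the HSP90, HSP70 and tubulin genes, was not tested.

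Over all 8 mice, ciliated cells had the highest summed level of the subunits, 14.1 ± 3.23 transcripts per 10,000 (SD, n = 8). A UMI is counted per molecule and not per length, and the values of different subunits were added on that ground. UMIs of unspliced transcripts are included. The part of gene length, overlapping genes and the Cct3 pseudogene in these sums, and in the shares below, was not tested. Alveolar macrophages (10.8 ± 1.497), AT1 cells (9.76 ± 1.06), B cells (9.02 ± 1.47) and T cells (8.80 ± 1.15) followed. The middle of the order held mesothelial cells (8.42), classical monocytes (8.41), NK and cytotoxic T cells (8.32), peribronchial fibroblasts (8.03), lymphatic endothelial cells (7.55), aerocytes (7.54), adventitial fibroblasts (7.49), arterial (7.04) and venous endothelial cells (6.84) and alveolar fibroblasts (6.84). AT2 cells (6.31 ± 0.545), gCap cells (6.15 ± 0.864), non-classical monocytes (6.02), club cells (5.51) and goblet cells (5.12) were lower. The lowest values were in cells labelled mast cells (3.74 ± 0.398) and cells labelled NG (1.30 ± 0.159). Between neighbours in this order, the gap was larger than the larger of both SDs only below ciliated cells, below goblet cells and below the cells labelled mast cells. These means and SDs hold CS and RA mice together, and the SD therefore includes the smoke difference. Within each group alone the same 3 gaps exceeded the larger SD. In RA mice those below venous endothelial cells and AT2 cells did so too, and in CS mice those below alveolar macrophages, mesothelial cells, alveolar fibroblasts and gCap cells. The order of close types depended on the group, with AT2 cells below gCap cells in RA mice (6.75 ± 0.364 against 6.93 ± 0.107) and above them in CS mice (5.87 ± 0.221 against 5.37 ± 0.299). In cells labelled NG, with a median of 2287 UMIs per cell, only Cct5 passed the filter on detection, and a Cct7 transcript was found in 7.01% of cells against 95.4% of ciliated cells at 15659 UMIs.

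**Figure D5:**
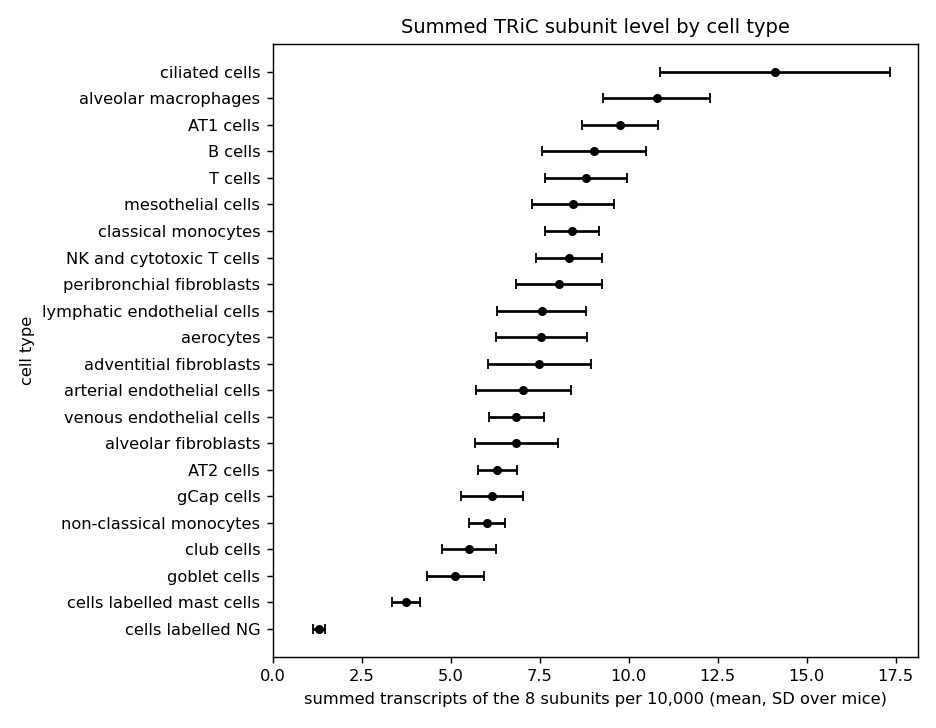
Summed level of the 8 TRiC subunits in 22 cell types, as transcripts per 10,000, with the mean and SD over the 6 to 8 mice that had at least 20 cells. Ciliated cells stand highest at 14.1 and cells labelled NG lowest at 1.30.

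The 8 subunits did not contribute equally. Cct7 made up 22.4% ± 1.99 of the subunit transcripts in ciliated cells (SD, n = 8) and 10.3% in non-classical monocytes and in alveolar macrophages, with a median over types of 13.7%. In ciliated cells this share was 21.3% in CS and 23.6% in RA mice. Cells labelled NG, with few transcripts of any subunit, were close to it at 22.1% ± 7.70, with 27.3% in CS and 16.8% in RA mice. Tcp1 had its highest share in AT2 cells (16.1% ± 0.860), Cct3 in lymphatic endothelial cells (14.7%) and Cct6a in alveolar macrophages (15.9% ± 2.48). In gCap cells the share of Cct6a was 12.4% in CS and 10.3% in RA mice. Across the 22 types, the level of each subunit on the log2 scale correlated with the mean of the other 7 at a Pearson r between 0.815 (Cct7) and 0.932 (Cct4). These r include ciliated cells and cells labelled NG, the highest and the lowest type, and were not computed without them.

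Among the 1664 genes tested in every type, those closest to the subunits across the 22 types were Hint1 (Pearson r = 0.881), Ywhae (0.866), Atp5a1 (0.863), Atp5b (0.859), Psma2 (0.855), St13 (0.850), Ghitm (0.844) and Hsp90ab1 (0.832), and the median r of all 1664 was 0.131. Without the highest and lowest type, ciliated cells and cells labelled NG, r was 0.731 for Hint1 and 0.455 for Hsp90ab1. The points come from the same 8 libraries, and the types differ in depth.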

How the data were processed

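Lungs of 8 mice were profiled with 10x 3′ chemistry. The authors aligned reads with STAR 2.7.3a (STARsolo) to GRCm38.p6 with GENCODE annotation, added the UMIs of spliced and unspliced transcripts, dropped low-quality cells and took out free RNA with SoupX, so that the deposited matrix holds estimated counts, of which 1.28% were whole numbers within 1e-06. The mitochondrial percent per cell and the cell type names were used as deposited by the authors. How doublets were called is not given in the sources used here beyond the multiplet label, and cells with that label were left out.

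Each cell was scaled to 10000 transcripts, and values were averaged over the cells of a type in a mouse with at least 20 cells, in types with at least 3 such mice per group. Genes found in at least 10% of cells of either group were tested with limma 3.58.1 (R 4.3.3) on log2(value + 1), with Benjamini-Hochberg adjustment over all genes tested in the type and a threshold of 0.05. Count models were not used, since SoupX-corrected values averaged over cells are not counts. The script was tested on simulated data. Mice were grouped by the exposure given in the labels. The members and gene lists were chosen with earlier results of these data known. Named genes were the 8 subunits (per mouse where called, and in AT2 cells, gCap cells and alveolar macrophages), the HSP90 genes, up to 4 called members of each companion list with the largest change, and the 8 genes most like the subunits over types. Pfdn2, Pfdn6, Pdcl3 and Mkks, and the subunit examples in adventitial fibroblasts, club cells and non-classical monocytes, fall outside that rule for values and were chosen after their values were seen. Protein sequences were not analysed here. Alternatives were another pseudocount, other filters, summed UMIs, median centring, quantile normalization, lane or depth as a term, 50 cells per mouse and leaving out each mouse.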

Additional observations from a re-analysis of the deposited data

Results flagged for a closer look

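Among 140 groups of 4 mice, 9 held a mouse far from the other 3 by Dixon's test, where chance gives about 7 (1 in 20). In ciliated cells Cct4 was 2.21 transcripts per 10,000 in RA mouse F1 against 1.99 to 2.01 in the other RA mice, and Hsp90aa1 was 26.2 in CS mouse C5 against 19.6 to 20.1. In gCap cells Hsp90aa1 was 4.36 in CS mouse C5 against 2.41 to 2.54. Cct6a in aerocytes was 0.679 in CS mouse D2 against 0.767 to 0.777. Cct3 in AT2 cells was 0.810 in RA mouse M1 against 0.767 to 0.774. In alveolar macrophages Cct2 was 1.02 in CS mouse C5 against 1.41 to 1.46, and Cct6a was 1.58 in CS mouse D2 against 1.85 to 1.88. In adventitial fibroblasts Cct6a was 0.571 in RA mouse M1 against 0.824 to 0.851, and Hsp90aa1 was 3.52 in CS mouse C2 against 6.398 to 6.76.

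The smoke difference differed between cell types for 3 subunits by limma, in pairs of types chosen because ciliated cells had already stood out, and all 3 calls were lost with pseudocount 0.1, with the lane as a term, with no filter on genes and without any 1 of the CS mice. On the log2 scale, ciliated minus gCap cells gave -0.26 for Cct6a and -0.22 for Tcp1, and ciliated minus club cells gave -0.28 for Cct4.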

How the results depend on the processing

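The 14 subunit calls over all types became 22 with genes in at least 25% of cells, 22 with summed UMIs, 5 with the lane as a term and 3 with no filter on genes, and ranged from 3 (without CS mouse D5) to 16 when a mouse was left out. In ciliated cells the 8 calls became 4 with the lane and 3 with no filter, and 3 to 8 without a mouse. In gCap cells the 5 became 0 with either, and 0 to 5 without a mouse. In aerocytes the 1 became 4 with the 25% filter, 5 with summed UMIs, 2 with median centring and 0 with no filter, and 0 to 3 without a mouse. The 8 HSP90 calls became 4 with the lane and 2 with no filter (4 to 7 without a mouse), and the 63 companion calls 35 and 4 (17 to 56). Between types, the 2 calls for ciliated minus gCap cells became 0 with pseudocount 0.1, the lane or no filter (0 to 2 without a mouse), and the 1 for ciliated minus club cells became 0 with each of these, 2 with quantile normalization, and 0 without any mouse. With no filter more genes were tested. The cause of the other shifts was not tested, and the shares of all genes called under these fits are not given. None of the 22 called subunit and HSP90 values changed sign. Signs of single companion and between-type calls were not followed. Tcp1, Cct4 and Cct6a in ciliated cells passed in 17 of 17 alternatives. By replicate number, no paired analysis was possible because the numbers were given in accession order. The lanes do pair each CS with an RA mouse, and the fit with the lane as a term is that paired fit. In cells labelled NG, lowest in both depth and level, 1 of 8 subunits passed the filter on detection, and low depth and low level cannot be told apart there.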
